A study of Mus musculus with 12 samples.

Results

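The insulin-like growth factor axis was described here by 10 genes, matched by symbol to the Ensembl gene identifiers of the quantification files: the ligand genes Igf1 and Igf2, the receptor genes Igf1r, Igf2r and Insr, the adaptor genes Irs1 and Irs2, and the binding protein genes Igfbp3, Igfbp4 and Igfbp5. The files list 48795 genes, of which 14838 passed the filter on low counts, and all 10 members passed it. RNA was sequenced from C2C12 cells, a mouse myoblast line that fuses into multinucleated myotubes when serum is withdrawn, after 5 days of differentiation. There were 12 libraries, 3 for each of 4 groups. The vehicle group had vehicle for 24 h. The gRc group had 10 µM ginsenoside Rc (gRc), a saponin of ginseng, for 24 h. The H2O2 group had vehicle for 18 h and then 0.25 mM H2O2 for 6 h. The gRc + H2O2 group had 10 µM gRc for 18 h and then 0.25 mM H2O2 for 6 h, although a tag on these libraries gives a gRc pretreatment of 24 h. All groups are cultures of 1 cell line without neighbouring tissue. The labels do not say whether replicates were separate cultures, and p-values then reflect only the scatter of the sequenced libraries, part of which may be technical.

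The products of Igf1 and Igf2 are secreted growth factors that skeletal muscle cells make for themselves. Both activate the receptor tyrosine kinase encoded by Igf1r, which can pair with the closely related insulin receptor, encoded by Insr. The receptor of Igf2r does not signal in this way and carries the Igf2 product to lysosomes. The active receptors phosphorylate the adaptors encoded by Irs1 and Irs2, which recruit phosphoinositide 3-kinase and through it AKT and mTOR, the route by which these factors drive differentiation, protein synthesis and growth of muscle fibres and restrain FOXO factors. The binding proteins hold the ligands outside the cell and can block or prolong their action, and Igfbp5 is a major binding protein of differentiating muscle cells.

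The sequences before the start sites are shown for Igf1, Igf1r and Irs1, the members that fell past the threshold in the comparison of gRc + H2O2 with gRc below. RefSeq promoters (GRCm38.p6, 300 bases each, 250 before and 50 after the start site) were found for 9 of 10 members, 12 promoters in all. They were searched on both strands for a forkhead site (TGTTTAC), a cAMP response element (TGACGTCA), an AP-1 site (TGANTCA), a CEBP-ATF4 element (TGATGCAA) and a myogenic E-box (CAGCTG), and none of the matches overlapped another. Only the Igf1 promoter held a match to any of these letters, an E-box 157 bases and an AP-1 site 37 bases before the start site. Of 32851 promoters searched, 16.3% held the E-box letters, 7.81% the AP-1 letters, 3.65% the forkhead letters, 1.79% the cAMP response element and 0.895% the CEBP-ATF4 letters. The start site of Igf1 in RefSeq lies 2846 bases inside the gene model of GENCODE vM21, and 2 of its annotated transcripts have an exon in the window, so that 30 bases around each match are given (plus strand, the match in capitals). The 250 bases before the start sites of Igf1r and Irs1, which held no match, are given whole. These RefSeq start sites lie 570 bases (Igf1r) and 23 bases (Irs1) before the GENCODE gene models. The stretches of Igf1r and Irs1 are rich in G and C, at 77.6% and 72.4%, against 52.8% in the same stretch of Igf1 and a median of 52.7% over all 300-base promoters.
Igf1 E-box, chr10:87860942-87860971, plus strand: gggaagagaggtCAGCTGcctagagcgatt
Igf1 AP-1, chr10:87861063-87861092, plus strand: gagctggaactTGAATCActattctggata
Igf1r, chr7:67952007-67952256, plus strand: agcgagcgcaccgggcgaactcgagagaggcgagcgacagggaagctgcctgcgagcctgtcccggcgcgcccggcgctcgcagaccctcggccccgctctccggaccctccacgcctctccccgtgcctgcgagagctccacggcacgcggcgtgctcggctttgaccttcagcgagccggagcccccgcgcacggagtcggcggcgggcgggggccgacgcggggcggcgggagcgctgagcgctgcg
Irs1, chr1:82291440-82291689, minus strand: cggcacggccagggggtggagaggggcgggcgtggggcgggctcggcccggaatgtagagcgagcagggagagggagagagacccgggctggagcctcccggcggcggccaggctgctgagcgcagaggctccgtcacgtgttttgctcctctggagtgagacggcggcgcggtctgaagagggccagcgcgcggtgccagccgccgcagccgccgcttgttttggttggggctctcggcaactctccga

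Total expected counts ran from 19274762 to 31409066 per library, and the 10 members had between 102 counts (Igfbp3) and 49368 counts (Igfbp5) in a library. The labels' cell-type tag reads myoblasts, while 8 myotube markers such as Myh3 and Ckm summed to between 10686 and 12248 CPM (counts per 1000000 counts of a library, scaled by the TMM factors of edgeR) without H2O2, and the undifferentiated myoblast markers Pax7 and Myf5 to between 18.5 and 45.8 CPM. Adipocyte, endothelial and macrophage markers, 2 of each, summed to less than 1 CPM in every library. Of 4 fibroblast markers, Col1a1 and Col3a1 were abundant, and the list summed to between 3352 and 25223 CPM, highest in vehicle replicate 1. On the first principal component, which held 43.1% of the variance, vehicle replicate 1 (-68.6) and vehicle replicate 3 and gRc replicate 3 (82.3 and 84.2) stood apart, and the last pair also had the highest share of mitochondrial transcripts, 4.52% and 4.53%, against 0.1003% to 3.15% elsewhere. H2O2 replicates 1 and 3 lay on the side of vehicle replicate 1, at -44.9 and -40.5, and the other libraries between -19.1 and 22.8. The 3 libraries said to stand apart are all without H2O2 and were picked from these same data. Results that rest on these 3 libraries are given with and without them.

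In TPM, fragments per transcript length scaled to 1000000 in a library, Igfbp5 ranked first and Igf2 second among the members in all 12 libraries. In vehicle cells Igfbp5 stood at 254 ± 91.7 TPM (mean ± SD, n = 3) and Igf2 at 82.1 ± 27.9 TPM, with no overlap between them. Igfbp4 (34.1 ± 7.34 TPM), Igf2r (27.9 ± 3.30 TPM) and Igf1 (23.1 ± 9.15 TPM) came next and overlapped with their neighbours in this order. Irs1 (11.1 ± 2.04 TPM), Insr (8.77 ± 3.74 TPM), Igfbp3 (6.57 ± 1.98 TPM) and Igf1r (6.38 ± 0.920 TPM) also overlapped from one to the next. Irs2 was lowest at 4.37 ± 1.02 TPM, below Igf1r in all 3 vehicle libraries. Igfbp5 alone took 45.5% to 62.5% of the summed TPM of the 10 members without H2O2 and 48.8% to 52.9% with it.

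How 6 h of H2O2 moved the axis was measured against vehicle and, in 6 other libraries, by gRc + H2O2 against gRc. Igf1 fell in both comparisons, 3.92-fold and 4.01-fold in fragments, Igf1r fell in both, 1.37-fold and 1.62-fold, and Irs1 fell 1.64-fold in the second. No member rose. In H2O2 against vehicle 2 of 10 members fell and 0 rose, where 7.84% of all genes tested fell and 7.81% rose, and in gRc + H2O2 against gRc 3 of 10 fell and 0 rose, where 8.15% fell and 7.57% rose (edgeR, adjusted p under 0.05). At an unadjusted p under 0.05 there were 4 of 10 members in each, against 4422 and 4185 of the 14838 genes tested. The median log2 fold change of the members was -0.43 and -0.36, and that of all genes -0.06 and -0.04. The groups did not overlap in 3 members that were lower and 1 that was higher with H2O2 than with vehicle (15.2% and 15.9% of all genes), and in 6 that were lower and 0 that were higher in gRc + H2O2 than in gRc (19.5% and 19.2%). The share of all genes in which all 6 libraries with H2O2 lay below the 6 without it in CPM was not counted. Changes without the 3 libraries that stood apart are given with single genes below. In that fit the 1 vehicle library left is taken to vary like the other groups, so sizes and no calls are given there.

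In bulk samples, fewer cells of a type and less RNA per cell cannot be told apart. With H2O2, the 8 myotube markers summed to 8203 to 9682 CPM, below every library without it, although 0 of the 8 passed the test in H2O2 against vehicle and 1 of 8 fell in gRc + H2O2 against gRc. The undifferentiated myoblast markers summed to 12.4 to 20.7 CPM with H2O2, and Pax7 fell (log2 fold change -1.27, adjusted p = 0.00352). The 4 cycling cell markers summed to 155 to 193 CPM with H2O2 and to 171 to 267 CPM without it, and 0 of the 4 passed. The 4 fibroblast markers were all below 0 in log2 fold change, with a median of -0.51 in H2O2 against vehicle, -0.84 in gRc + H2O2 against gRc, where 2 of the 4 did not overlap, and -0.50 in gRc + H2O2 against H2O2, and 0 of the 4 passed in any of these. The part of these markers in the results was not tested.

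**Figure D1:**
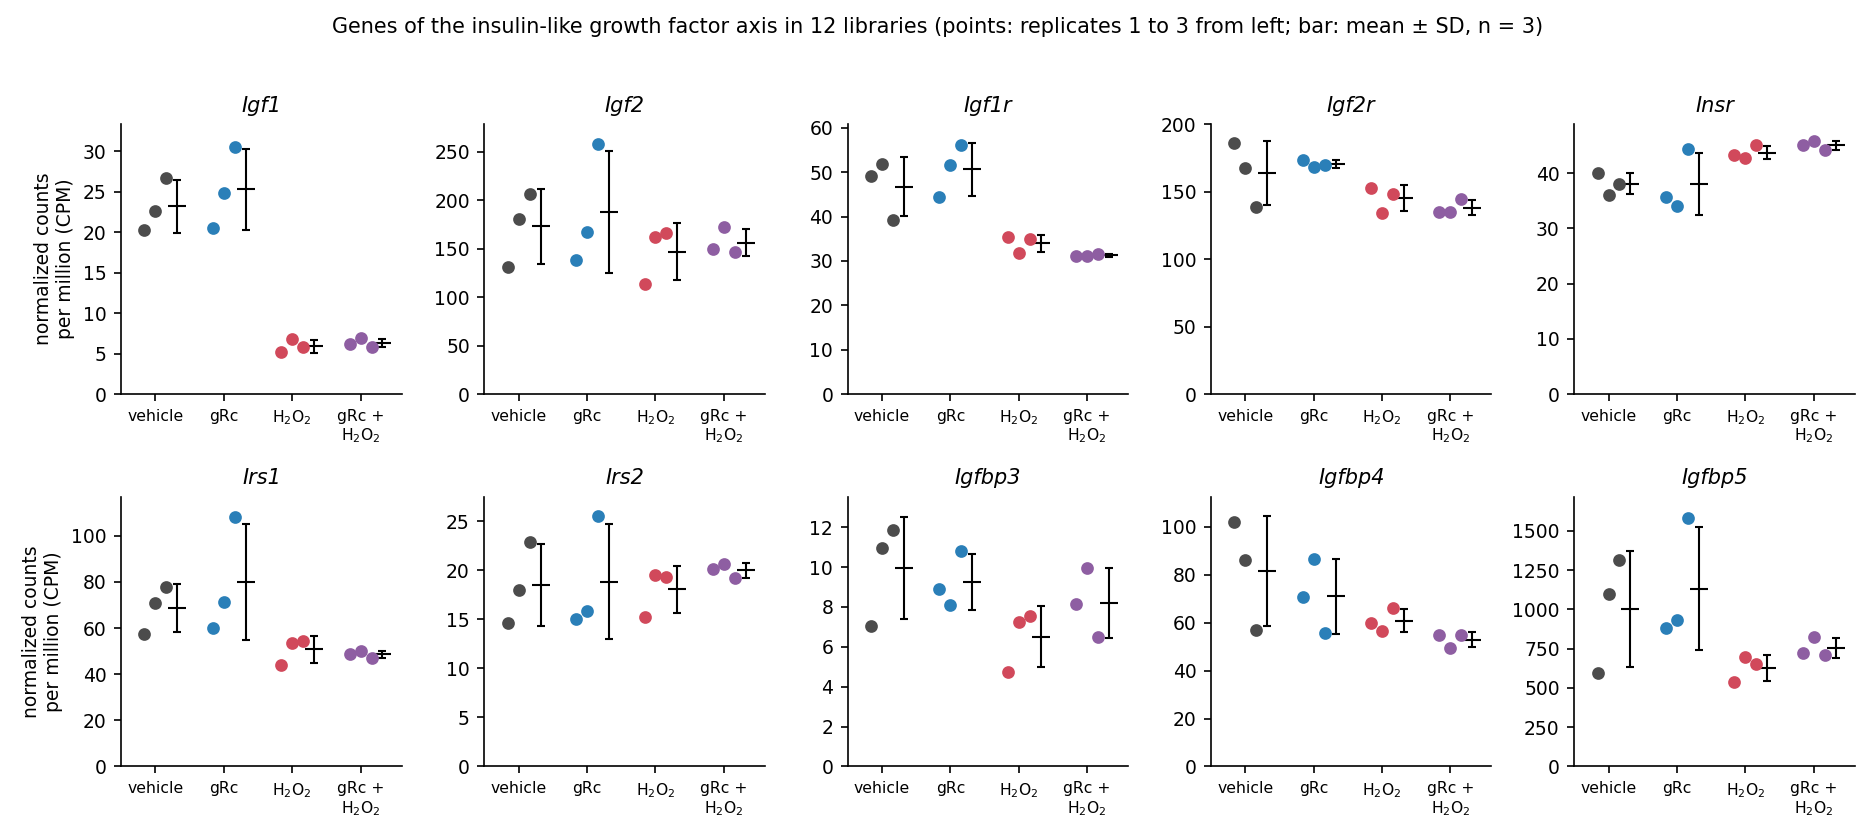
Normalized counts (CPM, vertical axis, from 0) of the 10 members in the 4 groups. Points are libraries and bars the mean ± SD (n = 3). Igf1 lies between 20.2 and 30.5 CPM without H2O2 and between 5.13 and 6.91 CPM with it, and Igf1r and Irs1 are also lower in every library with H2O2.

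Igf1 (ENSMUSG00000020053, chr10:87858265-87937042, plus strand) encodes the growth factor best known for driving muscle hypertrophy. It stood at 20.2, 22.6 and 26.7 CPM in vehicle replicates 1, 2 and 3 and at 20.5, 24.8 and 30.5 CPM in the gRc replicates. With H2O2 it stood at 5.13, 6.75 and 5.83 CPM, and with gRc + H2O2 at 6.14, 6.91 and 5.85 CPM. Every library with H2O2 was below every library without it, while vehicle and gRc overlapped, as did H2O2 and gRc + H2O2. The log2 fold change was -1.97 (SE 0.19, 95% interval -2.39 to -1.55, adjusted p = 0.000145) in H2O2 against vehicle and -2.003 (SE 0.19, interval -2.42 to -1.59, adjusted p = 0.000127) in gRc + H2O2 against gRc. Leaving out any 1 library left the change between -2.08 and -1.87 in the first and between -2.13 and -1.86 in the second, past the threshold each time. Without the 3 libraries that stood apart it was -1.94 and -1.85.

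The estimated length of the Igf1 transcripts moved along with the fragments, a pattern chosen for description after its values were seen and given with no test. Effective length is the number of positions a fragment can start from, averaged by RSEM over the transcripts of a gene by their estimated abundance. It was 1158, 1107 and 2753 bases in vehicle replicates 1, 2 and 3 and 1318, 972 and 3208 bases in gRc. With H2O2 it was 615, 670 and 518 bases, and with gRc + H2O2 706, 723 and 520 bases. The 6 libraries with H2O2 thus lay below the 6 without it, which happened in 25 of 14838 genes tested (0.168%), and the median was 1.93 times as long without H2O2 as with it. Igf1 has 8 annotated coding transcripts of 510 to 7052 bases, the second longest of 2292 bases. The other 9 members had ratios of medians between 0.973 and 1.08.

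Per length, the difference in Igf1 was smaller and no longer passed. The TPM were 23.9, 31.8 and 13.6 in vehicle, 24.3, 36.6 and 14.3 in gRc, 11.3, 14.6 and 15.4 in H2O2 and 13.0, 14.1 and 15.9 in gRc + H2O2. Vehicle replicate 3 and gRc replicate 3, the pair with the longest estimates, lay among the libraries with H2O2, and the other 4 libraries without H2O2 lay above all 6 with it. With the effective lengths as offsets the log2 fold change was -0.70 (adjusted p = 0.225) in H2O2 against vehicle and -0.77 (adjusted p = 0.194) in gRc + H2O2 against gRc, and limma on log2(TPM + 0.5) gave -0.66 (adjusted p = 0.287) and -0.69 (adjusted p = 0.272). Counts of the single Igf1 transcripts were not used here.

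**Figure D2:**
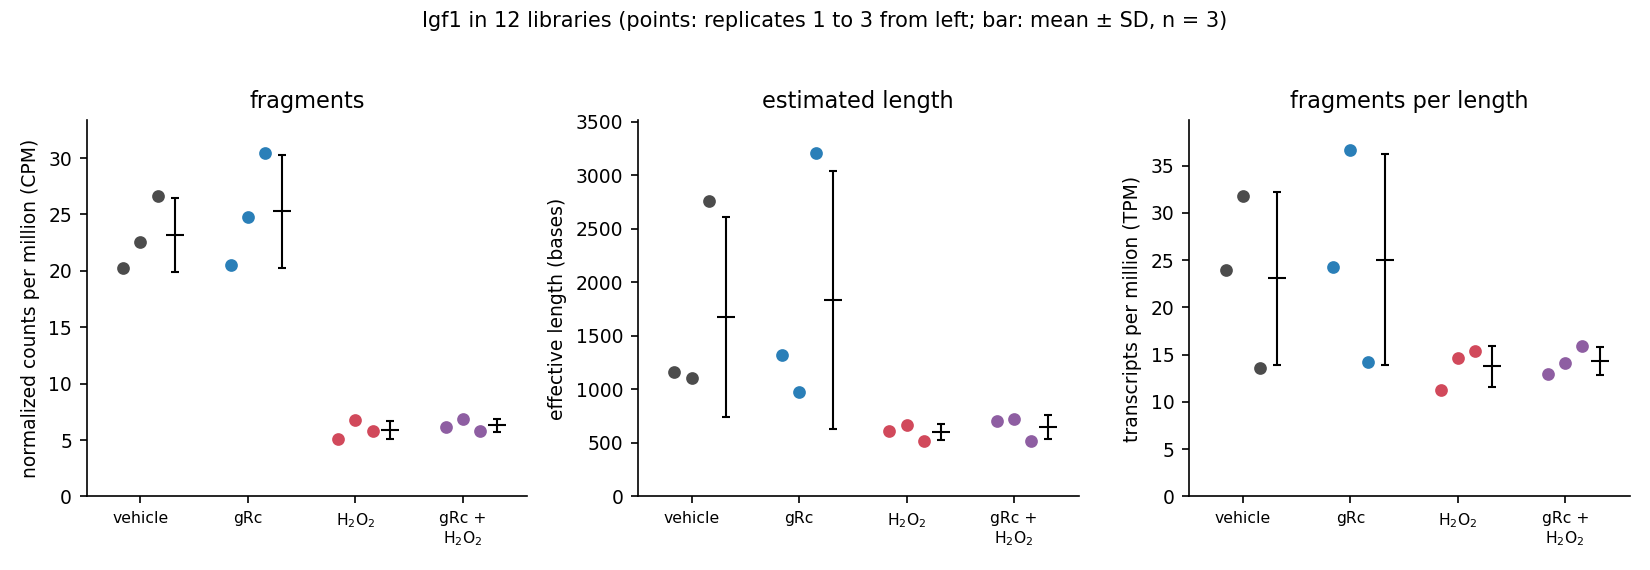
Igf1 in 12 libraries as normalized counts (CPM, left), RSEM effective length in bases (middle) and abundance per length (TPM, right), all axes from 0. Points are libraries and bars the mean ± SD (n = 3). Fragments and length are lower in all 6 libraries with H2O2, at 5.13 to 6.91 CPM and 518 to 723 bases, while TPM overlap through 13.6 in vehicle replicate 3 and 14.3 in gRc replicate 3.

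Igf2 (ENSMUSG00000048583, chr7:142650766-142666816, minus strand), an imprinted gene whose product promotes myoblast differentiation, did not pass in any comparison. It stood at 131, 181 and 207 CPM in vehicle, 138, 167 and 258 CPM in gRc, 113, 162 and 166 CPM in H2O2 and 150, 172 and 147 CPM in gRc + H2O2, and all 4 groups overlapped. The log2 fold change was -0.23 (interval -0.79 to 0.32, adjusted p = 0.582) in H2O2 against vehicle and -0.26 (interval -0.82 to 0.29, adjusted p = 0.553) in gRc + H2O2 against gRc, the latter 0.03 without the 3 libraries that stood apart. A library held 6.48 to 8.47 fragments of Igf2 for each fragment of Igf1 without H2O2 and 22.0 to 28.4 with it. H19, the noncoding RNA gene of the same imprinted domain, stood at 11963 ± 1657, 11963 ± 2715, 11674 ± 1577 and 11362 ± 1280 CPM in vehicle, gRc, H2O2 and gRc + H2O2 (mean ± SD, n = 3), with log2 fold changes of -0.04 (adjusted p = 0.936) and -0.07 (adjusted p = 0.864) in the same comparisons. On the strand opposite to Igf2, Igf2os had at most 36 counts in a library.

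Igf1r (ENSMUSG00000005533, chr7:67952827-68233668, plus strand), the receptor that carries the growth signal of both ligands, fell in both comparisons. Its values were 49.3, 51.7 and 39.2 CPM in vehicle, 44.3, 51.6 and 56.2 CPM in gRc, 35.3, 31.8 and 34.9 CPM in H2O2 and 31.01, 31.1 and 31.6 CPM in gRc + H2O2. The 6 libraries with H2O2 lay below the 6 without it, and the 3 of gRc + H2O2 below the 3 of H2O2. The log2 fold change was -0.46 (SE 0.14, interval -0.76 to -0.15, adjusted p = 0.0464) in H2O2 against vehicle and -0.70 (SE 0.14, interval -1.004 to -0.39, adjusted p = 0.00712) in gRc + H2O2 against gRc. The first call was close to the threshold and was lost without any 1 of 9 libraries (all but vehicle replicate 3, gRc replicate 1 and gRc replicate 3), with adjusted p from 0.0617 to 0.149 and log2 fold changes from -0.50 to -0.38. The second passed without any 1 library, with adjusted p up to 0.0356. Without the 3 libraries that stood apart the log2 fold changes were -0.62 and -0.63.

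Insr (ENSMUSG00000005534, chr8:3122061-3279617, minus strand), the insulin receptor gene, was the one member higher in every H2O2 library than in every vehicle library, without passing the test. It stood at 39.9, 36.1 and 38.1 CPM in vehicle and at 43.3, 42.8 and 45.0 CPM in H2O2. In gRc it stood at 35.6, 33.996 and 44.4 CPM and in gRc + H2O2 at 45.0, 45.9 and 44.2 CPM, which overlapped through gRc replicate 3. The log2 fold change was 0.20 (interval -0.07 to 0.47, adjusted p = 0.318) in H2O2 against vehicle and 0.24 (interval -0.03 to 0.52, adjusted p = 0.232) in gRc + H2O2 against gRc, and the first was -0.06 with effective-length offsets and -0.01 with limma on TPM. Its effective length was 4190 bases in vehicle replicate 1 and 6967 to 8679 bases in the other 11 libraries. Without the 3 libraries that stood apart the second difference was 0.36. Igf2r (ENSMUSG00000023830, chr17:12682406-12769664, minus strand), the clearance receptor, stood at 186, 168 and 139 CPM in vehicle, 174, 168 and 170 CPM in gRc, 153, 135 and 148 CPM in H2O2 and 135, 135 and 144 CPM in gRc + H2O2. Its groups overlapped in the first comparison (log2 difference -0.18, interval -0.46 to 0.11, adjusted p = 0.406) and not in the second (-0.31, interval -0.59 to -0.02, adjusted p = 0.150). The second difference of Igf2r was -0.32 without the 3 libraries that stood apart. The imprinted antisense gene Airn had 16 to 135 counts in a library.

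Ratios of the paired receptor and adaptor genes within a library, where its depth cancels, are given as a description with no test. For each fragment of Insr there were 1.23, 1.43 and 1.03 fragments of Igf1r in vehicle and 1.24, 1.52 and 1.26 in gRc. With H2O2 there were 0.814, 0.744 and 0.776, and with gRc + H2O2 0.689, 0.678 and 0.716. Igf1r thus had more fragments than Insr in all 6 libraries without H2O2 and fewer in all 6 with it, and the gRc + H2O2 libraries lay below the H2O2 libraries. For each fragment of Irs2 there were 3.92, 3.93 and 3.40 fragments of Irs1 in vehicle, 3.99, 4.50 and 4.23 in gRc, 2.90, 2.73 and 2.81 in H2O2 and 2.43, 2.42 and 2.44 in gRc + H2O2. Here too no library with H2O2 reached one without it, and the gRc + H2O2 libraries were lowest. Per length the first separation was lost. In TPM, Igf1r over Insr was 0.477, 1.04 and 0.904 in vehicle, 0.897, 1.02 and 0.949 in gRc, 0.542, 0.617 and 0.569 in H2O2 and 0.551, 0.576 and 0.593 in gRc + H2O2. Vehicle replicate 1, which had the short Insr estimate, lay below every library with H2O2, and the H2O2 and gRc + H2O2 groups overlapped. Irs1 over Irs2 in TPM was 2.32 to 3.08 in the 6 libraries without H2O2, 1.87 to 1.99 in H2O2 and 1.66 to 1.67 in gRc + H2O2. Each of these genes has 1 annotated transcript, with effective lengths of 8898 to 8969 bases for Irs1 and 6077 to 6148 bases for Irs2. Their ratio in TPM therefore had to follow that in fragments and is no separate check. Between binding proteins, Igfbp5 per Igfbp4 overlapped, at 5.82 to 28.6 fragments without H2O2 and 8.98 to 16.8 with it. How often other pairs of genes lie apart in this way was not counted.

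**Figure D3:**
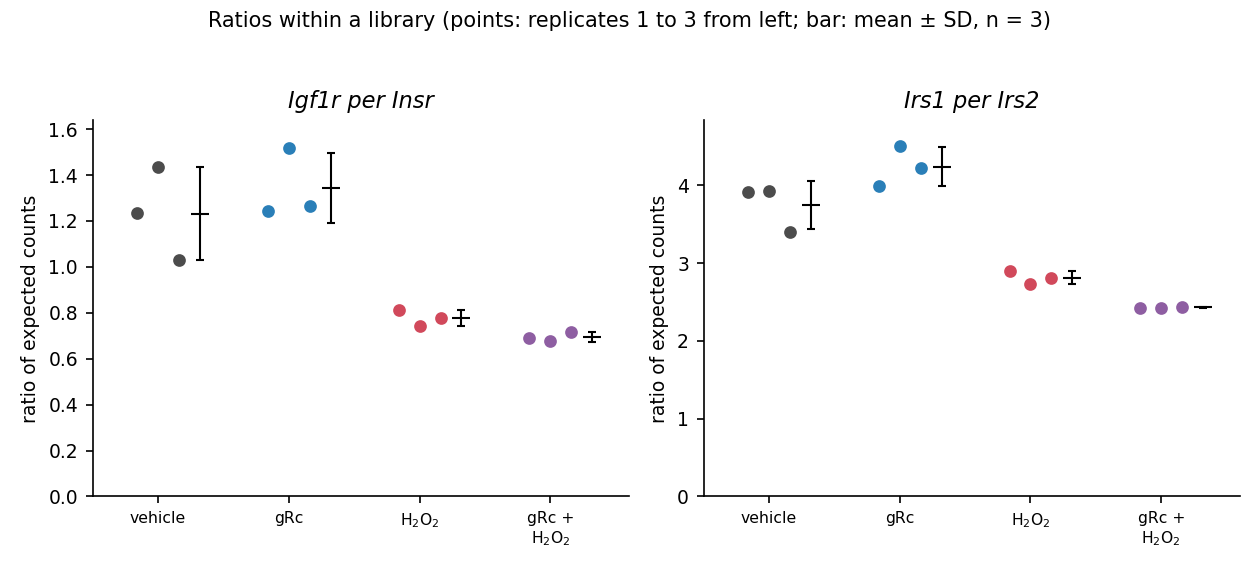
Fragments of Igf1r for each fragment of Insr (left) and of Irs1 for each of Irs2 (right), as ratios of expected counts within a library, axes from 0. Points are libraries and bars the mean ± SD (n = 3). The 6 libraries with H2O2 lie at 0.678 to 0.814 and 2.42 to 2.90, below the 6 without it at 1.03 to 1.52 and 3.40 to 4.50, while in TPM the left ratio overlaps through 0.477 in vehicle replicate 1.

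Irs1 (ENSMUSG00000055980, chr1:82233101-82291416, minus strand), the main adaptor of these receptors in muscle, was lower in every library with H2O2 and passed in the second comparison. It stood at 57.4, 70.9 and 77.9 CPM in vehicle and at 44.1, 53.5 and 54.5 CPM in H2O2 (log2 fold change -0.44, SE 0.21, interval -0.89 to 0.02, adjusted p = 0.181). In gRc it stood at 60.0, 71.5 and 108 CPM and in gRc + H2O2 at 48.9, 50.1 and 46.8 CPM (log2 fold change -0.72, SE 0.21, interval -1.17 to -0.26, adjusted p = 0.0384). The highest value was that of gRc replicate 3, and without this library the second difference was -0.45 (adjusted p = 0.0897). The call was also lost without any 1 of 7 other libraries (vehicle replicate 2, gRc replicate 2, H2O2 replicates 2 and 3 and the 3 of gRc + H2O2), with adjusted p from 0.0507 to 0.111. It was lost as well with effective-length offsets (-0.72, adjusted p = 0.0691), with limma on TPM (-0.68, adjusted p = 0.0883) and with only the groups compared (-0.71, adjusted p = 0.0644). Without all 3 libraries that stood apart the second difference was -0.44. Gm9747, on the opposite strand, had 117 to 534 counts where Irs1 had 947 to 3371, and its own differences were -0.62 (adjusted p = 0.381) and 0.38 (adjusted p = 0.630). Whether the counting used strand is not given in the sources used here. The expected counts of Irs1 and Gm9747 were fractional and added up to a whole number in every library. They were 3371.27 and 119.73 in gRc replicate 3 and 1467.02 and 412.98 in gRc + H2O2 replicate 1. Fragments that both genes could claim were thus divided between them, and the part of this in the Irs1 results was not tested.

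Irs2 (ENSMUSG00000038894, chr8:10984681-11008458, minus strand), the second adaptor, did not pass in any comparison. Its values were 14.6, 18.1 and 22.9 CPM in vehicle, 15.0, 15.9 and 25.6 CPM in gRc, 15.2, 19.6 and 19.4 CPM in H2O2 and 20.1, 20.7 and 19.2 CPM in gRc + H2O2, with overlap of all groups. On the log2 scale it differed by -0.04 (interval -0.54 to 0.46, adjusted p = 0.933) and 0.09 (interval -0.41 to 0.58, adjusted p = 0.849), and both changed sign when single libraries were left out, with ranges of -0.18 to 0.13 and -0.05 to 0.36.

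Of the 3 binding protein genes none passed in either comparison, although all 6 differences were below 0. Igfbp5 (ENSMUSG00000026185, chr1:72857932-72874884, minus strand), the most abundant member, stood at 593, 1098 and 1313 CPM in vehicle, 884, 930 and 1585 CPM in gRc, 538, 698 and 652 CPM in H2O2 and 725, 824 and 712 CPM in gRc + H2O2. Vehicle replicate 1 lay among the H2O2 libraries, and the other 5 libraries without H2O2 lay above all 6 with it. The log2 fold change was -0.67 (SE 0.30, interval -1.33 to -0.01, adjusted p = 0.162) and -0.59 (SE 0.30, interval -1.24 to 0.07, adjusted p = 0.228). Without vehicle replicate 1 the first was -0.93 (adjusted p = 0.0247). Without all 3 libraries that stood apart the differences were -0.81 and -0.27. Vehicle replicate 1 had the lowest share of mitochondrial transcripts (0.1003%) and 25223 CPM of fibroblast markers. Nearly all of that sum was Col3a1 (15642 CPM) and Col1a1 (9557 CPM), with Pdgfra at 22.9 and Dpt at 1.28 CPM. The part of the mitochondrial share and of these markers in the result was not tested.

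Igfbp4 (ENSMUSG00000017493, chr11:99041244-99054392, plus strand), which mostly restrains the ligands, was highest in vehicle replicate 1, which had the lowest Igfbp5 of the libraries without H2O2. It stood at 102, 86.0 and 56.7 CPM in vehicle, 70.7, 86.5 and 55.5 CPM in gRc, 60.0, 56.4 and 66.0 CPM in H2O2 and 55.0, 49.2 and 54.6 CPM in gRc + H2O2. Its log2 fold change was -0.42 (interval -0.89 to 0.05, adjusted p = 0.214) and -0.42 (interval -0.89 to 0.05, adjusted p = 0.228). Without the 3 libraries that stood apart it was -0.51 and -0.58, and the second passed with effective-length offsets (-0.56, adjusted p = 0.0437). Igfbp3 (ENSMUSG00000020427, chr11:7206086-7213923, minus strand), the main carrier of the ligands in blood, was scarce here, at 102 to 336 counts. It stood at 7.04, 10.96 and 11.8 CPM in vehicle, 8.88, 8.08 and 10.8 CPM in gRc, 4.75, 7.26 and 7.53 CPM in H2O2 and 8.14, 9.97 and 6.49 CPM in gRc + H2O2. Its log2 fold change was -0.61 (interval -1.18 to -0.05, adjusted p = 0.138) and -0.17 (interval -0.73 to 0.39, adjusted p = 0.716), and the first passed without vehicle replicate 1 (-0.80, adjusted p = 0.0386).

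Whether gRc moved the axis was asked in 3 ways, by gRc against vehicle, by gRc + H2O2 against H2O2 and by the difference between the H2O2 effects with and without gRc. In each of the 3, 0 of 10 members and 0.0% of all genes passed (edgeR), and 0 members had an unadjusted p under 0.05. Over all genes, 74, 122 and 87 had an unadjusted p under 0.05, and DESeq2 called 0, 2 and 1 genes, none of them a member. The unadjusted counts depend on the libraries fitted. They were 159, 2293 and 1409 without the 3 libraries that stood apart, and with only the groups compared 15 in gRc against vehicle and 2072 in gRc + H2O2 against H2O2, again with 0 genes past the adjusted threshold. The members' log2 fold changes ran from -0.20 to 0.22 in gRc against vehicle, from -0.20 to 0.33 in gRc + H2O2 against H2O2 and from -0.28 to 0.44 in the difference. These comparisons share libraries with each other and with those above.

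The intervals give what differences the fit of all 12 libraries leaves room for, since a test that is not passed does not show equal levels. They rest on a spread shared by all groups and not on the compared libraries alone. In gRc + H2O2 against H2O2, 122 of 14838 genes had an unadjusted p under 0.05 in this fit. With only the groups compared 2072 of 14283 did, so these intervals may be wider than the 2 groups alone would give. After H2O2, gRc was followed by a log2 difference of 0.09 in Igf1 (interval -0.32 to 0.50), -0.12 in Igf1r (interval -0.43 to 0.18), 0.04 in Insr (interval -0.23 to 0.32) and -0.06 in Irs1 (interval -0.51 to 0.39). Igfbp3 had the largest at 0.33 (interval -0.23 to 0.90) and Igfbp5 0.26 (interval -0.40 to 0.91). The gRc + H2O2 libraries lay below the H2O2 libraries without overlap in Igf1r and Igfbp4 and above them in Igfbp5, where 7.62% of all genes were lower and 7.69% higher in this way. In gRc against vehicle the difference was 0.12 in Igf1 (interval -0.27 to 0.52) and 0.22 in Irs1 (interval -0.24 to 0.67), and 0 members lay apart in either direction, against 0.741% of all genes lower and 0.869% higher. The H2O2 effect with gRc differed from that without it by -0.03 in Igf1 (interval -0.60 to 0.54), -0.24 in Igf1r (interval -0.67 to 0.19), -0.28 in Irs1 (interval -0.92 to 0.36) and 0.44 in Igfbp3 (interval -0.36 to 1.23).

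**Figure D4:**
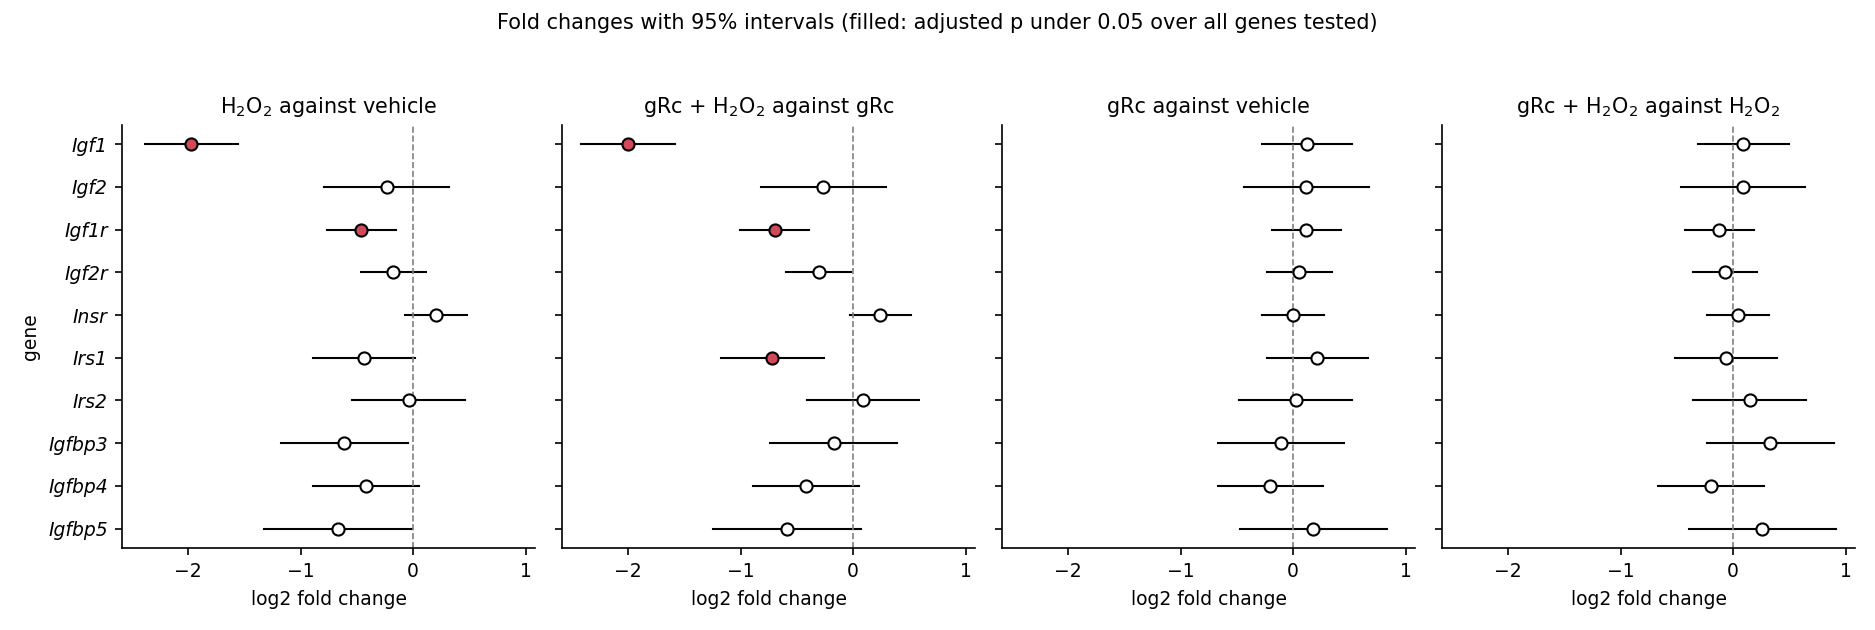
Log2 fold changes (horizontal axis) of the 10 members in 4 comparisons with 95% intervals, filled where the adjusted p over all genes tested was under 0.05. Filled points are Igf1 and Igf1r in H2O2 against vehicle and Igf1, Igf1r and Irs1 in gRc + H2O2 against gRc, and in the 2 gRc comparisons on the right every interval spans 0.

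Of 67 other genes of the pathway, 62 were tested. In H2O2 against vehicle 8 rose and 5 fell, and in gRc + H2O2 against gRc 7 rose and 6 fell. The same 6 rose and the same 4 fell in both, and 6 passed in 1 of the 2. Their median log2 fold change was -4.6e-05 and 0.01. Over all genes 7.81% rose and 7.84% fell in the first comparison and 7.57% and 8.15% in the second, and the 5 that fell are close to that share of 62. By group, 5 of 23 genes of AKT and mTOR rose and 1 fell in the first comparison, and 4 rose and 2 fell in the second. Of 10 genes of phosphoinositide 3-kinase and lipid phosphatases 0 rose and 2 fell in both. Of 15 adaptor and feedback genes 1 rose and 2 fell, and then 1 rose and 1 fell. Among 4 FOXO factors 1 rose and 0 fell, and then 1 rose and 1 fell. Among 7 genes of ligand binding and release 1 rose and 0 fell in both, and 0 of 3 genes of Igf2 RNA and locus passed in either. In the 3 gRc comparisons 0 of 62 passed.

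Trib3, whose pseudokinase product binds and restrains AKT, went from 16.8 ± 10.1 CPM in vehicle to 213 ± 55.6 CPM in H2O2 and from 14.1 ± 5.26 CPM in gRc to 147 ± 19.9 CPM in gRc + H2O2 (mean ± SD, n = 3), which on the log2 scale was a rise of 3.67 (adjusted p = 0.000416) and 3.38 (adjusted p = 0.000644). Stc2, an inhibitor of the protease that frees the ligands from their binding proteins, rose by 1.57 (adjusted p = 0.000713) and 1.60 (adjusted p = 0.000612) on the log2 scale. Eif4ebp1, a translation repressor held in check by mTOR, rose by 1.24 and 1.17, and Foxo3, a transcription factor that AKT keeps out of the nucleus, by 0.61 and 0.54. Among the genes that fell, Pik3r3, a regulatory subunit of phosphoinositide 3-kinase, went from 44.5 ± 2.95 to 18.1 ± 2.16 CPM and from 48.1 ± 1.36 to 17.3 ± 1.13 CPM, differences of -1.30 and -1.47 on the log2 scale. Grb14, an adaptor that inhibits the insulin receptor, was scarce at 2.00 ± 0.327 CPM in vehicle and changed by -1.17 (adjusted p = 0.0138) and -0.89 (adjusted p = 0.0421). Deptor, an inhibitor of mTOR, changed by -0.87 and -0.87. Inpp4b, a lipid phosphatase, varied widely in vehicle (41.6 ± 24.5 CPM). Its changes of -1.61 (adjusted p = 0.0455) and -1.65 (adjusted p = 0.0406) were close to the threshold. Ptpn1, a phosphatase that acts on the insulin receptor, fell in the first comparison (-0.47, adjusted p = 0.0237) and not in the second (-0.30, adjusted p = 0.130).

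**Figure D5:**
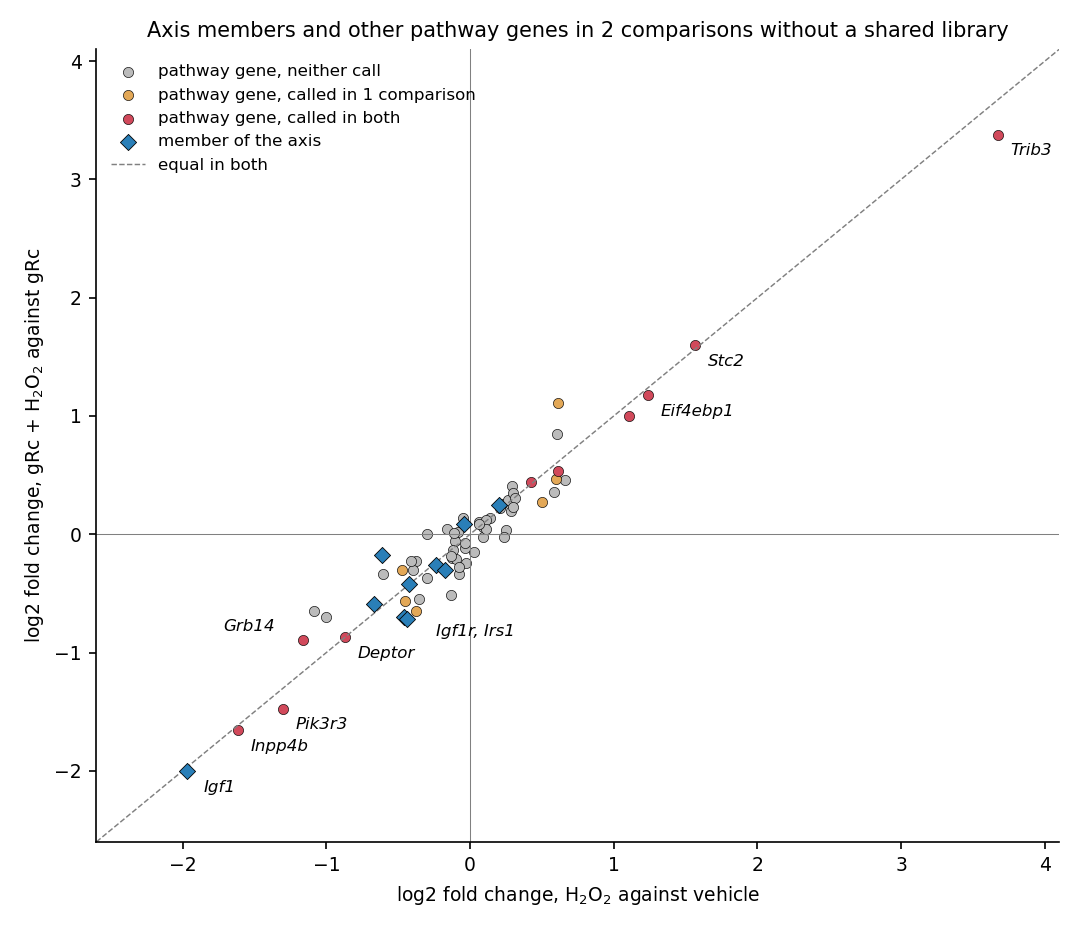
Log2 fold changes of 62 other pathway genes (circles) and the 10 members (diamonds) in H2O2 against vehicle (horizontal axis) and gRc + H2O2 against gRc (vertical axis), which share no library. Red circles passed in both, yellow in 1 of the 2 and grey in neither. Igf1 is the lowest point of either kind at -1.97 and -2.003, and Trib3 the highest at 3.67 and 3.38.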

How the data were processed

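RNA of C2C12 cells was sequenced as 100 bp paired ends in 12 poly(A) libraries, 3 for each of vehicle, gRc, H2O2 and gRc + H2O2, grouped by the deposited labels. The authors trimmed the reads with TrimGalore, aligned them with STAR (2.7.3a) to GRCm38 and estimated gene values with RSEM (1.3.3) on the annotation GRCm38.86. The authors' expected counts (fragments assigned to a gene, not normalized) were the values tested, after rounding to whole numbers. Their deposited TPM (fragments per length, scaled within a library) and effective lengths (in bases, for each gene and library) served alternatives. The deposited FPKM were left out, which restate those counts per length.

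Genes were kept by filterByExpr of edgeR (4.0.16, R 4.3.3), 14838 in all. They were fitted in all 12 libraries with TMM factors and edgeR's quasi-likelihood F test, with Benjamini-Hochberg adjustment over all genes tested and a threshold of 0.05. An SE is the absolute log2 fold change over the root of its F. Total counts were 19274762 to 31409066 per library, and the biological coefficient of variation of the fit was 0.295. Alternatives were DESeq2 (1.42.0), RLE factors, no filter, at least 10 counts in every library, a fit of the compared groups alone, a replicate block, offsets for effective length, limma (3.58.1) on log2(TPM + 0.5), mitochondrial genes left out, a GC correction (spline with 5 degrees of freedom per library) with and without the block, and leaving out libraries. The fits were tested on simulated data first.

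The members, lists and tests were chosen with earlier results of these data known. All members are named, and of the other pathway genes at most the 4 smallest p in each direction and comparison, plus H19. Coordinates are those of GENCODE vM21 on GRCm38, and promoters those of RefSeq (GRCm38.p6). The labels give replicate numbers and do not state a pairing. Same-numbered gRc and vehicle libraries deviated from their group means together, with correlations of 0.460, 0.271 and 0.860, each over the threshold of 0.1. The last is that of vehicle replicate 3 and gRc replicate 3, which stood apart. In the other comparisons at least 1 replicate number was under this threshold, as in gRc + H2O2 against gRc with -0.496 and -0.550 for replicates 2 and 3. In gRc + H2O2 against H2O2 only replicate 1 was (0.080), with 0.402 and 0.309 for replicates 2 and 3, so pairing there is not excluded. With the replicate block gRc against vehicle still had 0 members past the threshold. Within a group no library was a duplicate of another, and pairs across groups were not compared in this way.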

Additional observations from a re-analysis of the deposited data

How the results depend on the processing

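Igf1r in gRc + H2O2 against gRc passed under all 12 settings other than the leaving out of single libraries, and Igf1 in both H2O2 comparisons under 10 of 12, the exceptions being effective-length offsets and limma on TPM. In H2O2 against vehicle, 2 members passed, and 1 did so with no filter, with the replicate block, with the GC correction, with both together and with only the groups compared, while 0 did with effective-length offsets and with limma on TPM. Leaving out single libraries gave 1 to 3. In gRc + H2O2 against gRc, 3 passed, 2 did with effective-length offsets (Igf1r and Igfbp4) and 2 with only the groups compared (Igf1 and Igf1r), 1 with limma on TPM (Igf1r), and 6 without the 3 libraries that stood apart, and 2 to 3 when single libraries were left out. The cause of these changes was not tested. With the replicate block, the log2 fold change of Igf1r in H2O2 against vehicle was -0.46 and no longer passed (adjusted p = 0.0682). By the threshold of 0.1, same-numbered libraries went together only in gRc against vehicle, where the block changed no call. Over all genes, gRc + H2O2 against gRc had 1123 that rose and 1209 that fell, and 656 and 803 with limma on TPM. H2O2 against vehicle had 1159 and 1164, 382 and 357 with only the groups compared, 763 and 839 with effective-length offsets and 703 and 789 with limma on TPM.

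Of the log2 differences that changed sign under a setting, none had passed the test. In H2O2 against vehicle, Insr was -0.064 with effective-length offsets and -0.0058 with limma on TPM, and Irs2 0.0084 with the GC correction and block. In gRc + H2O2 against H2O2, Insr was -0.098 with effective-length offsets, -0.051 with limma on TPM, -0.0093 with the GC correction and -0.0071 with the block added, and Irs1 was 0.014 with limma on TPM. In gRc against vehicle, Insr was 0.0004 with no filter and 0.002 with at least 10 counts. Without the 3 libraries that stood apart, gRc against vehicle gave -0.0019 for Igf1, -0.25 for Igf2, -0.12 for Igf1r, -0.12 for Irs1, -0.23 for Irs2 and -0.28 for Igfbp5, and Igf2 was 0.029 in gRc + H2O2 against gRc. In the difference between the H2O2 effects, the same libraries left out gave 0.090 for Igf1, 0.34 for Igf2, 0.053 for Irs1 and -0.066 for Igfbp4. There Igf2 was 0.018 with the block, 0.26 with effective-length offsets, 0.24 with limma on TPM and 0.030 with the GC correction and block, and Igfbp4 was -0.013, -0.056, -0.084 and -0.016 in the same order and -0.0063 with the GC correction alone.

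Leaving out single libraries turned the sign of differences that had not passed, with these ranges. In H2O2 against vehicle it was -0.18 to 0.13 for Irs2. In gRc + H2O2 against H2O2 the ranges were -0.006 to 0.19 for Igf1 and -0.076 to 0.18 for Igf2, and in gRc + H2O2 against gRc -0.44 to 0.020 for Igf2 and -0.049 to 0.36 for Irs2. In gRc against vehicle they were -0.037 to 0.23 for Igf1, -0.19 to 0.27 for Igf2, -0.0097 to 0.19 for Igf1r, -0.065 to 0.16 for Igf2r, -0.13 to 0.056 for Insr, -0.069 to 0.36 for Irs1, -0.27 to 0.19 for Irs2, -0.30 to 0.021 for Igfbp3 and -0.15 to 0.41 for Igfbp5. The difference between the H2O2 effects gave -0.15 to 0.12 for Igf1, -0.19 to 0.27 for Igf2, -0.016 to 0.17 for Insr, -0.43 to 0.0002 for Irs1, -0.047 to 0.41 for Irs2, -0.19 to 0.21 for Igfbp4 and -0.15 to 0.40 for Igfbp5.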
